A study of Mus musculus with 9 samples.

Results

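The H/ACA small nucleolar RNAs (snoRNAs) and the small Cajal body RNAs (scaRNAs) were followed across RIPiT-seq libraries of mouse embryonic stem cells (ESCs). Members were taken by name as the genes whose symbol starts with Snora or Scarna and whose RPKM, the reads of a gene scaled by transcript length and by mapped reads, was above 0 in at least 1 of 9 libraries. Of 46 such symbols 45 met this rule, 36 Snora and 9 Scarna genes, among 24132 genes in the table of which 20431 were above 0. Snora35 was at 0 in all 9 libraries. A filter that asked for 2 or more libraries with an RPKM of 1 or more was passed by 37 members and 9787 genes in all. Every test below was fitted over these 9787 genes unless another filter is named.

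RIPiT purifies a tagged protein in tandem, first through a FLAG and then through an HA epitope, and sequences the RNA that comes with it, here from cells fixed with 1% formaldehyde for 15 min. The tagged protein was WDR5, a subunit of MLL histone methyltransferase complexes. The lines were V6.5 ESCs with FLAG-HA WDR5 WT, with FLAG-HA WDR5 F266A (a phenylalanine replaced by alanine) or with the empty vector and hence no tagged protein. All were made with lentivirus, the tagged lines were clones picked for WDR5 close to its endogenous level, the cDNA was human, and the F266A construct was also shorter at its N-terminus, so the point mutation, the truncation and the clone cannot be told apart. Each line had 2 immunopurified (IP) libraries and 1 input library, and as the labels do not say whether the IPs came from separate cultures, their spread may be technical.

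An H/ACA snoRNA folds into hairpins joined by a hinge with the H box (ANANNA) and ends in ACA a few bases before its 3′ end, and with dyskerin, Nop10, Nhp2 and Gar1 it guides the conversion of uridine to pseudouridine in ribosomal RNA. ScaRNAs do the same, or guide 2′-O-methylation, on spliceosomal RNAs in Cajal bodies, and telomerase RNA shares the H/ACA fold. Most are cut out of introns of host genes, many of which encode ribosomal proteins or translation factors.

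The sequences of the members on which the comparisons turn are shown first, on the NCBIM37 (mm9) genome. Snora23 lies at chr7:117189878-117190061 on the plus strand in an intron of Ipo7, Scarna13 at chr12:106269285-106269559 on the minus strand in no annotated host, and Scarna9 at chr9:15130708-15130777 on the minus strand in an intron of 5830418K08Rik. Snora52 lies at chr7:148634702-148634838 on the plus strand in Rplp2, Snora81 at chr16:23110829-23111006 on the plus strand in Eif4a2, Scarna3a at chr1:161270414-161270553 on the plus strand in an intron of Rfwd2, and Snora47 at chr13:96100555-96100692 on the plus strand in an intron of Zbed3. Capitals mark ACA within the last 8 bases and, with it, ANANNA in the middle of the gene where it was found there (not in Scarna13), or, in Scarna9, the C box TGATGA and the D box CTGA of the methylation guides.
Snora23: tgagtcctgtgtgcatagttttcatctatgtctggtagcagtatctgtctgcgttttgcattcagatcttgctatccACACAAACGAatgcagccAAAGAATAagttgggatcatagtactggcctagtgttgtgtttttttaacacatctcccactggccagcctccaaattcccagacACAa
Scarna13: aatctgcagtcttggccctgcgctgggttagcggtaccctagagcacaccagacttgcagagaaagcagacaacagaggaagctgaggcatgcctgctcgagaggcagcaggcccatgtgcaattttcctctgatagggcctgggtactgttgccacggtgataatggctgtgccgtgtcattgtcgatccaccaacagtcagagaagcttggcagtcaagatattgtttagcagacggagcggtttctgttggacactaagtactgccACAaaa
Scarna9: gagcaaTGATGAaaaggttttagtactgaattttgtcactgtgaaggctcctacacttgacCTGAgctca
Snora52: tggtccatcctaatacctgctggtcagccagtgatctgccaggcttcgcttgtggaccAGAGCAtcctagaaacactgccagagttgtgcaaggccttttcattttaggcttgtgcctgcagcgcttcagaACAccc
Scarna3a: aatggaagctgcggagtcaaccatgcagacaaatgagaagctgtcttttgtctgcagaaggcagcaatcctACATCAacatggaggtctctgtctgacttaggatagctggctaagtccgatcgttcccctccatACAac
Snora47: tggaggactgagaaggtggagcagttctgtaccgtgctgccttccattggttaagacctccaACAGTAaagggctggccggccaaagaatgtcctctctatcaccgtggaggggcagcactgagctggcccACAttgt
Snora81: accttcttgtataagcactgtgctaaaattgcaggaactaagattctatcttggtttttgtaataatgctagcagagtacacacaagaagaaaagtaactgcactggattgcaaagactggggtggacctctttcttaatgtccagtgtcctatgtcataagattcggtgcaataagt
Snora81 has no capitals because ACA is not within the last 8 bases of its annotated gene.

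The name was then checked against the sequence of the 40 members with 1 gene of that symbol in GENCODE M1. On the strand of the gene, ACA lay in the last 8 bases of 29 of 31 Snora genes (93.5%), and ANANNA in the central 20% of the gene in 27 (87.1%). Among windows of equal length just upstream of the 40 genes, 3 had ACA in that place (7.5%) and 10 had ANANNA (25.0%). The Scarna genes were mixed. Scarna13, Scarna3a, Scarna3b and Scarna8 had the ACA end, while Scarna9, Scarna17, Scarna6 and Scarna10 had TGATGA in the first 15 and CTGA in the last 12 bases, a pair found in 0 of the 31 Snora genes and 0 of the 40 upstream windows. Scarna2 had neither. The members are therefore called Snora and Scarna genes here, since the ACA end was found in most of the former and in 4 of 9 of the latter. An H/ACA part inside a longer gene was not searched for, so Scarna genes without the ACA end may still hold one. Of the 40 genes, 37 lay within a host gene on the same strand, 11 of them in ribosomal protein genes and 7 in Snhg genes, which are spliced noncoding hosts of snoRNAs. Of these 37, 11 shared bases with annotated host exons, so that reads of the host and of the snoRNA cannot be told apart there, and strand was not stated for the counting.

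The levels of the members were uneven. The mean RPKM over the 9 libraries was at least 10 for 8 members, from 1 to 10 for 25 and under 1 for 12, and 10 members were at 0 in at least 1 library. The 4 genes with the highest medians were Scarna9, a guide for a spliceosomal RNA, with a median of 61.9, followed by Snora23 with 36.7, Snora52 with 34.0 and Scarna13 with 30.5. These 4 genes made up 41.2% to 44.6% of the members' summed RPKM in the inputs and 49.7% to 54.7% in the IPs. Estimated from RPKM, gene length and the depth of 13400000 to 50200000 mapped reads, Scarna13 rested on 85.9 to 247.1 reads per library and Snora23 on 54.7 to 207.9. Of the 34 members that passed the filter and have such an estimate, 17 had a median under 10 reads, among them Snora47, with 0.5 to 22.3 reads. In the plot of levels by library the inputs of the most abundant members lie below their IPs.

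**Figure D1:**
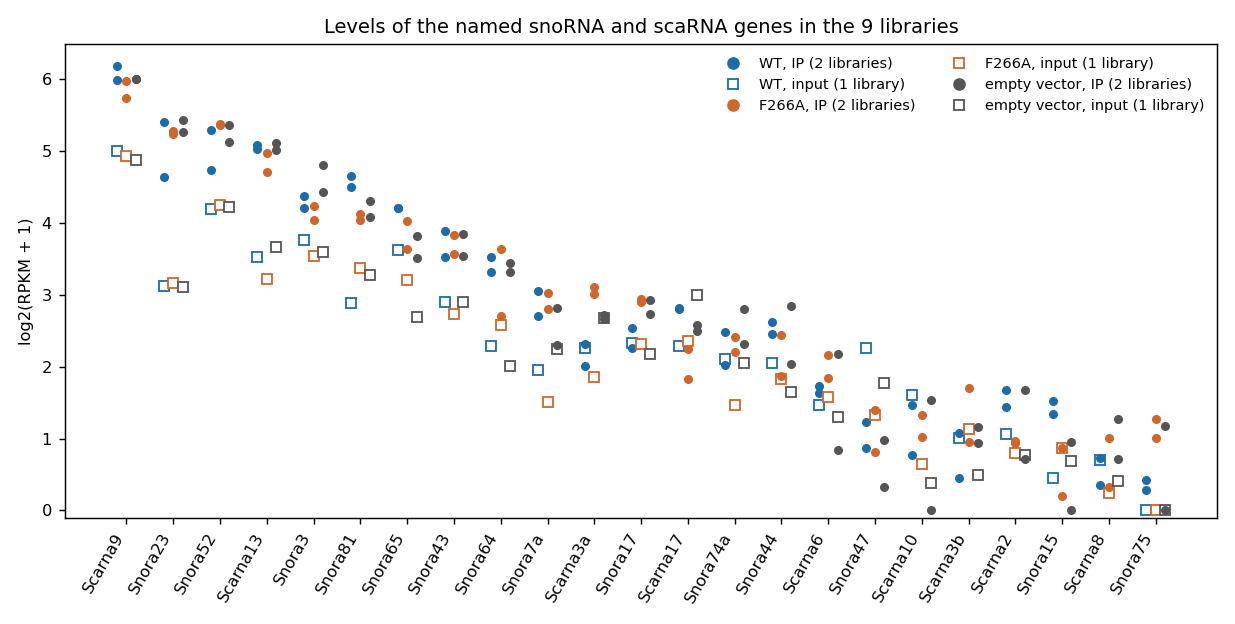
Levels of the 23 named members as log2(RPKM + 1), ordered by median RPKM, in each of the 9 libraries. Open squares are the inputs and filled circles the IPs of WT, F266A and empty vector. In Scarna9, Snora23, Snora52 and Scarna13 all 6 IPs sit above all 3 inputs.

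Summed over the 45 members, the RPKM of the inputs was 161.4 for WT, 143.0 for F266A and 150.5 for empty vector. It lay between 284.6 and 344.3 in the 6 IPs, and the ratio of the mean IP to the input was 1.96 in WT, 2.12 in F266A and 2.15 in the empty vector line. The sum was thus higher in the purified fraction of every line, with or without tagged WDR5. In bulk libraries, RNA in fewer cells and less RNA per cell cannot be told apart. The share of reads that fell on genes moved with this contrast, from 20.1% to 22.6% in the inputs and from 27.2% to 29.5% in the IPs, and its part in the result was not tested.

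To ask how much of the difference was shared by all genes, the IPs were compared with the input of their line, with 1 value per line (n = 3). The fit called 27 of the 37 members higher and 1, Snora47, lower in the IPs, against a background of 69.9% of all genes tested called higher and 0.756% called lower. The share of members called was therefore near that of all genes. The sizes lay further apart, with a median log2 difference of 0.55 over the 37 members, 0.42 over 46 C/D box (Snord) genes that passed the filter, 0.45 over 30 host genes and 0.30 over all genes tested. Centring every library on its median moved the median of all genes from 0.30 to -0.01, and then 9 members were higher and Snora47 stayed lower, where 8.95% of all genes were higher and 6.99% lower. These 9 were Snora23, Scarna13, Snora81, Scarna9, Snora64, Snora52, Snora43, Snora65 and Snora31. Of the 37 members 4 (Snora31, Snora75, Snora15 and Scarna8) passed the filter through IPs alone, since no input reached an RPKM of 1. Snora31 and Snora75 are among the 27 called and Snora31 among the 9, so that the filter itself favoured their direction. The cumulative plot of differences shows the members shifted to the right of all genes over most of its height.

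**Figure D2:**
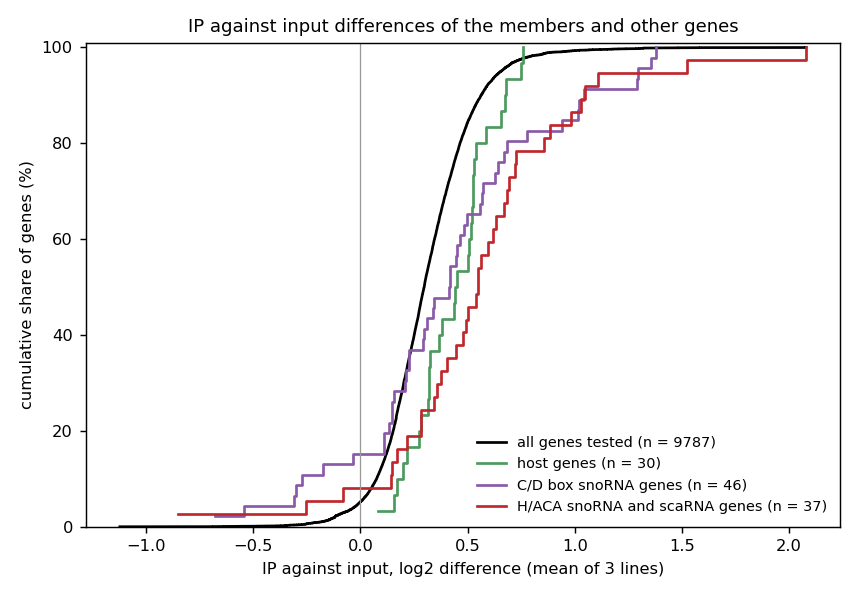
Cumulative share of genes (%) against the log2 difference between IP and input, as the mean of 3 lines, for the 37 members, 46 C/D box snoRNA genes, 30 host genes and all 9787 genes tested. The medians are 0.55, 0.42, 0.45 and 0.30, and the member curve ends at Snora23, 2.08.

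Snora23 had the largest difference of the 9787 genes in this fit. In WT the input of Snora23 stood at 7.72 RPKM and the IPs at 41.5 and 24.0, in F266A the input at 7.93 with IPs at 37.8 and 36.7, and with empty vector the input at 7.64 with IPs at 37.6 and 42.0. The inputs were close together, all IPs were above them, and the WT IPs were the furthest apart. The log2 difference was 2.08 (SE 0.083, adjusted p = 1.19e-05, limma with Benjamini-Hochberg adjustment), and the ratio of mean IP to input RPKM was 4.24 in WT, 4.69 in F266A and 5.21 in the empty vector line. Ipo7, its host and an importin of the nuclear import machinery, differed by 0.28 (SE 0.098, adjusted p = 0.033). The score of Snora23, the log2(RPKM + 1) of an IP minus that of its input, exceeded that of Ipo7 by 1.56 to 2.23 in the 6 IPs.

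Scarna13, a scaRNA with a pair of H/ACA domains, ranked 5 of 9787. In WT the input of Scarna13 stood at 10.5 RPKM and the IPs at 33.0 and 31.7, in F266A the input at 8.33 with IPs at 30.5 and 25.1, and with empty vector the input at 11.6 with IPs at 33.7 and 31.3. The inputs and IPs did not overlap, and F266A IP 2 was the lowest IP. The log2 difference was 1.52 (SE 0.075, adjusted p = 2.02e-05, limma).

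Scarna9 had an RPKM of 28.3 to 31.0 in the inputs and of 52.3 to 71.5 in the IPs. Its log2 difference was 1.05 (SE 0.071, adjusted p = 9.23e-05), while its host 5830418K08Rik differed by 0.08 (SE 0.086, adjusted p = 0.416). Its scores exceeded those of the host in all 6 IPs. Scarna9 carries C and D boxes and not the ACA end. Snora52, which lies wholly in annotated exon sequence of Rplp2, a gene for a ribosomal stalk protein, had 17.4 to 18.1 in the inputs and 25.6 to 40.5 in the IPs, with a log2 difference of 0.98 (SE 0.080, adjusted p = 0.000171).

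The next members were Snora81 with a log2 difference of 1.11 (SE 0.162), Snora64 with 1.03 (SE 0.132), Snora7a with 0.88 (SE 0.169), Snora43 with 0.86 (SE 0.075), Snora65 with 0.73 (SE 0.092) and Snora3 with 0.72 (SE 0.102), each higher in the IPs. Snora64, Snora65, Snora3 and Snora7a lie in ribosomal protein genes (Rps2, Rpl12, Rpl27a and Rpl32), Snora43 in the noncoding host Snhg7 and Snora81 in the translation factor gene Eif4a2. Of these, Snora7a and Snora3 missed the threshold once libraries were centred (adjusted p = 0.060 and 0.051). Counting overlap alone, 9 of the 45 members (20.0%) had all 6 IPs above all 3 inputs, against 22.0% of all genes above 0. Among genes that passed the filter these were 9 of 37 members (24.3%), against 42.2%, and 14 of 37 members had a score above 0 in all 6 IPs, against 66.3% of all genes tested. Both shares of the members were below those of the genes tested.

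Level and size went together among the members, as a description over genes that share libraries. The 10 members with a mean RPKM of at least 5 were all called higher, with a median log2 difference of 1.01. The 27 others had a median of 0.48 with 17 called higher. In a separate fit over the 3155 genes of the whole table at that level, 87.8% were called higher and the median was 0.41. All 10 members were called higher in that fit too. On the log2(RPKM + 1) scale the change of low genes is understated. The 10 members that passed the filter and share bases with host exons had a median of 0.72, and the 21 within a host but outside its exons had 0.50.

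Snora47 moved the other way. In WT the input of Snora47 stood at 3.77 RPKM and the IPs at 1.34 and 0.824, in F266A the input at 1.52 with IPs at 1.63 and 0.765, and with empty vector the input at 2.42 with IPs at 0.970 and 0.249. Only F266A IP 1 reached above the input of its line. The log2 difference was -0.85 (SE 0.170, adjusted p = 0.00299), the second lowest of 9787 genes, while its host Zbed3 differed by 0.52 (SE 0.091). Snora75, in the nucleolin gene Ncl, was at 0 in all 3 inputs and at 0 to 1.42 in the IPs, and its called difference of 0.69 rests on 0 to 4.6 reads per library.

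The scaRNAs differed among themselves. Besides Scarna13 and Scarna9, Scarna2 (0.36) and Scarna6 (0.28) were called higher, and Scarna3a (0.37), Scarna8 (0.28), Scarna3b (0.17), Scarna10 (0.15) and Scarna17 (-0.08) were not. After centring, only Scarna13 and Scarna9 of the 9 passed. The difference between the Scarna and Snora genes was not tested.

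**Figure D3:**
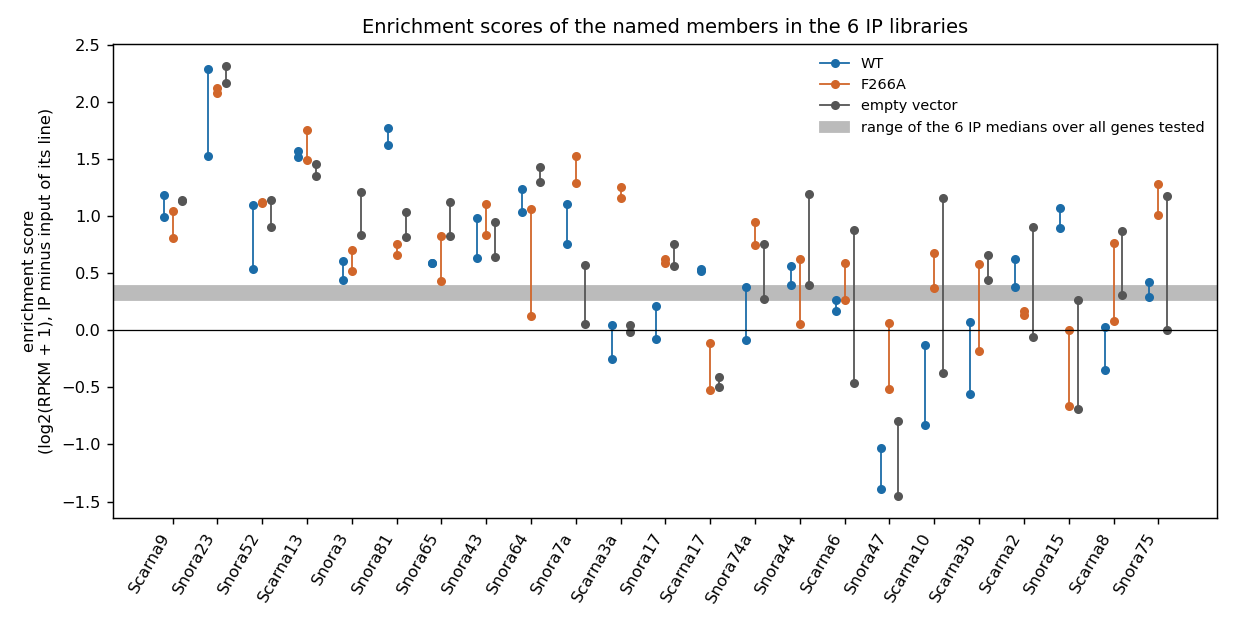
Enrichment scores, log2(RPKM + 1) of an IP minus the input of its line, of the 23 named members in the 6 IP libraries, with a line joining both IPs of WT, F266A or empty vector. The grey band spans the medians over all genes tested, 0.26 to 0.39. Snora23 and Scarna13 lie far above it in every line, Snora81 is highest in WT, Scarna3a in F266A, and Scarna17 is above 0 in WT only.

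Among 27 members compared with a host, both having passed the filter, the score of the snoRNA or scaRNA exceeded that of its host in all 6 IPs for 3, namely Scarna9, Snora23 and Snora52, and fell below it in all 6 for 1, Snora47. The others crossed their hosts. The median difference between member and host was 0.09, and 16 of the 27 had the higher mean score. In Snhg12, a noncoding host that carries Snora16a, Snora44 and Snora61, the host itself had a log2 difference of 0.76, and the 3 members had 0.62, 0.54 and 0.48. In Snhg7 the host had 0.65, Snora43 0.86 and Snora17 0.44.

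**Figure D4:**
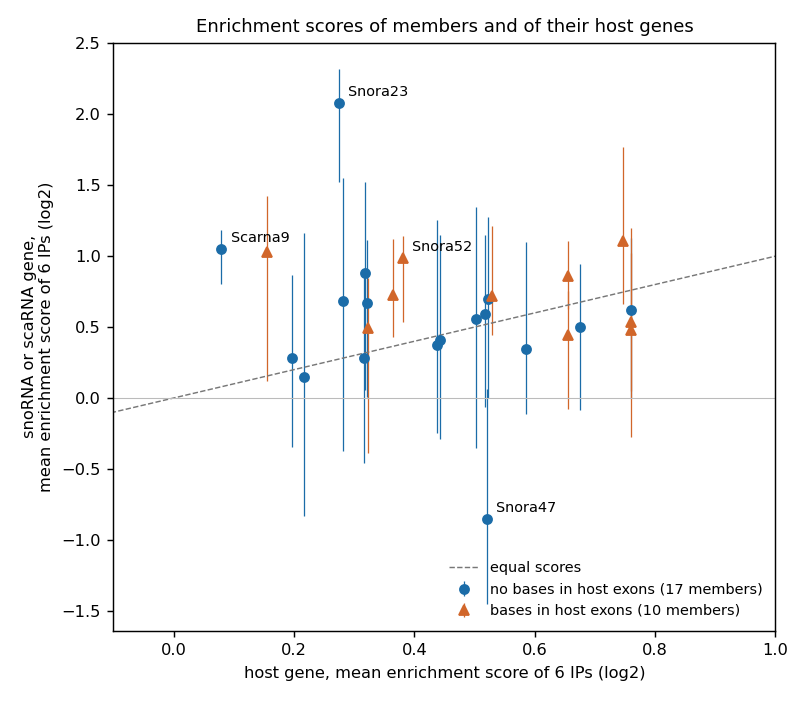
Mean enrichment score of the 6 IPs (log2) of 27 members against that of their host genes. Vertical bars span the lowest and highest of the 6 scores of the member, circles are members outside host exons, triangles share bases with them, and the dashed line marks equal scores. The 4 named members are those on one side of their host in all 6 IPs.

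The genes of the H/ACA and Cajal body machinery were compared in the same fit. All 11 tested genes of H/ACA RNP proteins and assembly factors were called higher in the IPs (69.9% of all genes tested), with log2 differences from 0.23 to 0.55, among them Dkc1, the pseudouridine synthase dyskerin, with 0.52 and Nop10 with 0.55. Of the 7 Cajal body and telomerase genes 6 were tested and all were called higher, including Coil, the coilin gene, with 0.55, Smn1 with 0.69 and the telomerase RNA Terc, itself an H/ACA RNA, with 0.48 (SE 0.070). Wrap53, whose protein carries scaRNAs to Cajal bodies, did not pass the filter. The 4 C/D RNP protein genes had 0.36 to 0.88, the highest in Nop56. Centring left 1 of 11, 2 of 6 and 1 of 4 called (Nop10, Coil and Smn1, and Nop56), where 8.95% of all genes were.

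The question the study asked of these libraries, which RNAs come down with WDR5 WT beyond F266A and empty vector, was then put to the members. The differences of enrichment scores were called for 0 members in each of the 3 pairs of lines (limma, adjusted p under 0.05), where 0% of all genes were called. At an unadjusted p under 0.05 were 4 of 37 members for WT against F266A, 8 for WT against empty vector and 7 for F266A against empty vector. Over all 9787 genes tested the numbers were 259, 173 and 243. The median difference over members was -0.19, -0.21 and -0.10 for these pairs, and over all genes -0.09, 0.01 and 0.10. These pairs share libraries. With 1 input per line the inputs give no spread, so the SE rests on the spread between IPs and holds no measured variation of the inputs. The median SE of a member was 0.42, against 0.24 over all genes. Differences of the size seen here did not pass the adjustment over 9787 genes.

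**Figure D5:**
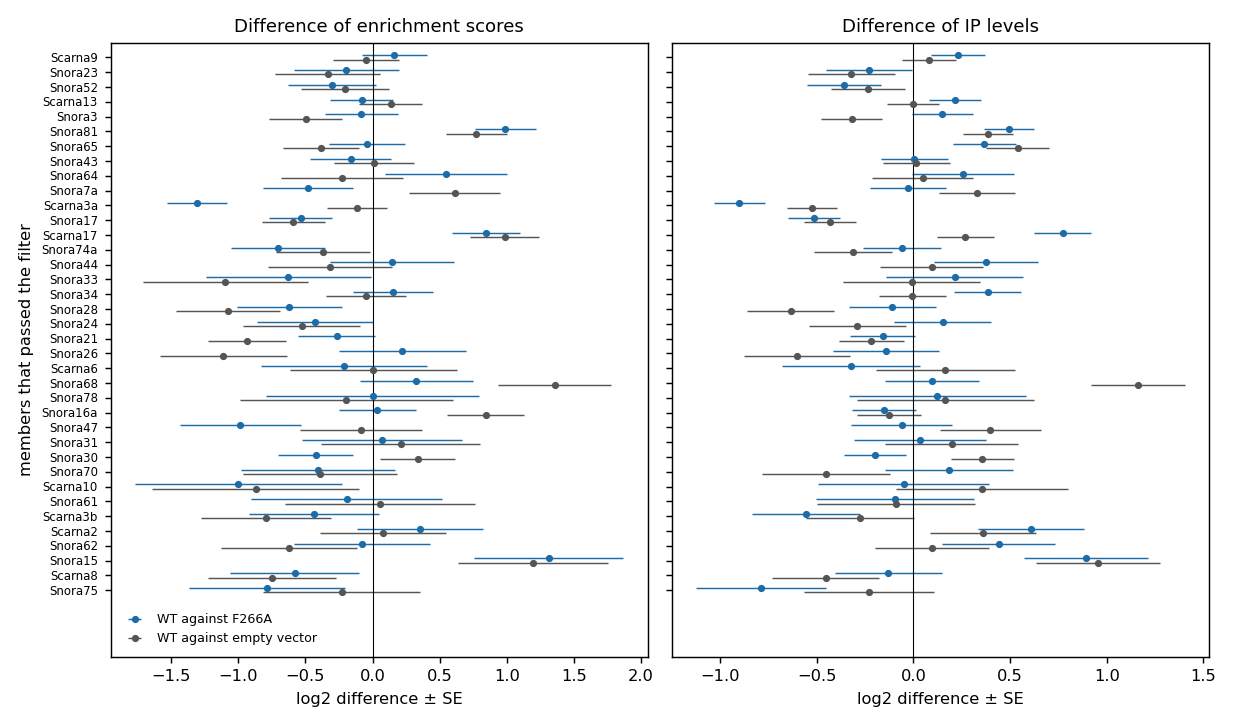
Differences between WT and F266A and between WT and empty vector for the 37 members that passed the filter, as log2 difference ± SE, of enrichment scores on the left and of IP levels on the right. Both comparisons share the WT libraries. On the left the lowest value is that of Scarna3a in WT against F266A, and on the right its difference of -0.90 is the only one that passed the adjusted threshold.

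By the study's rule, a gene counts as enriched with WT when its lower WT score is above 0 and above all 4 other scores. This held for 3 of 45 members, Snora81, Scarna17 and Snora15, where 5.66% of all genes above 0 met it. With F266A in the place of WT 3 members met the rule, Snora7a, Scarna3a and Snora30, against 16.0% of all genes. With the empty vector in that place 5 did, Snora3, Snora65, Snora64, Snora21 and Snora26, against 4.67%. The rule thus returned members with each line in that place, also with the one that carries no tagged protein. Without WT IP 2 the number for WT was 8 of 45 (17.8%), against 15.8% of all genes above 0.

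Snora81 was the most abundant of the 3. In WT the input of Snora81 stood at 6.37 RPKM and the IPs at 21.7 and 24.2, in F266A the input at 9.37 with IPs at 16.5 and 15.4, and with empty vector the input at 8.64 with IPs at 18.7 and 16.0. Both WT IPs were above the 4 others, and the WT input was the lowest input. The enrichment score was higher by 0.99 (SE 0.226) in WT than in F266A and by 0.77 (SE 0.226) than in empty vector (adjusted p = 1 for both), and the IP level alone by 0.50 (SE 0.131, adjusted p = 0.132) and 0.39 (SE 0.131, adjusted p = 0.770). All of its 178 bases lie in annotated exon sequence of Eif4a2, whose own score was 0.22 to 1.07 in the 6 IPs. Eif4a2 stood at 28.4 RPKM in the WT input with IPs at 42.1 and 33.3. In F266A its input was 22.6 with IPs at 41.8 and 48.7, and with empty vector 22.6 with IPs at 42.0 and 43.3. The host thus rose least over its input in WT, where Snora81 rose most. The score of Snora81 minus that of Eif4a2 ran from -0.41 to 1.55.

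Scarna17 is a scaRNA with C and D boxes. In WT the input of Scarna17 stood at 3.87 RPKM and the IPs at 5.99 and 6.04, in F266A the input at 4.12 with IPs at 2.56 and 3.73, and with empty vector the input at 6.99 with IPs at 5.0 and 4.65. It was above its input in both WT IPs and below it in the 4 others. The enrichment score differed by 0.85 (SE 0.255) from F266A and by 0.98 (SE 0.255) from empty vector (adjusted p = 1 for both), and the IP level of WT was 0.77 above F266A (SE 0.147, adjusted p = 0.057). Without F266A IP 2 the latter was 0.98, a value that sets the WT IPs against F266A IP 1 alone, at an estimated 4.1 reads. Scarna17 rested on 4.1 to 27.7 reads per library. Snora15 was at 0.369 RPKM (WT input), 1.87 and 1.55 (WT IPs) and 0 to 0.941 in the other 6 libraries. It reached an RPKM of 1 in the WT IPs alone, so it passed the filter only through the group where it is high. At these low values its enrichment score was 1.31 above that in F266A (SE 0.557, adjusted p = 1), a direction that the filter itself favoured.

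Comparing the IPs without their inputs gave 1 called member. Scarna3a was lower in WT than in F266A by a log2 difference of -0.90 (SE 0.131, adjusted p = 0.032, limma), where 1.16% of all genes were called and 0.388% were lower in WT. Its IPs stood at 3.97 and 3.04 RPKM for WT, at 7.66 and 7.09 for F266A and at 5.32 and 5.57 for empty vector, with inputs of 3.81, 2.63 and 5.38. The IPs of the 3 lines did not overlap, and how many other genes separate in this way was not counted. The F266A line had the lowest input and the highest IPs. These IP values of Scarna3a rest on an estimated 15.2 and 11.3 reads in WT, 21.9 and 24.2 in F266A and 18.6 and 10.5 in empty vector. Its host Rfwd2, a ubiquitin ligase gene, had IPs at 4.35 and 3.63 for WT, at 4.51 and 3.87 for F266A and at 4.74 and 4.21 for empty vector, which overlap. The call was lost without either WT IP, without F266A IP 2, without either empty vector IP and with no filter, at differences of -0.75 to -1.05. Except without F266A IP 2, no gene of the whole table was called in these settings, so the loss is not particular to Scarna3a.

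Markers of another cell type moved with the F266A line. The summed RPKM of the 5 primitive endoderm markers was 1.69 to 9.36 in the libraries of F266A, 0.171 to 0.430 in those of WT and 0.359 to 0.488 in those of empty vector. Dab2 and Gata4 made up most of it, with Dab2 at 3.02 RPKM (F266A input), 0.916 (IP 1) and 5.43 (IP 2) and at most 0.261 in the other lines, and Gata4 at 1.90, 0.695 and 2.69 and at most 0.171. Gata6 reached 0.936, Sox17 0.228 and Foxa2 0.096, each in a library of F266A, and 0 of the 5 were at 0 in all libraries. In F266A IP 1, however, Gata6 stood at 0.062, Sox17 at 0.016 and Foxa2 at 0. Their highest values in the other lines were 0.047, 0.046 and 0.052. The 6 stem cell markers summed to 174.5 to 253.1 in F266A, 226.9 to 290.6 in WT and 225.8 to 325.8 in empty vector, so the labelled cell type was borne out in every line. Among 4 feeder fibroblast markers Col3a1 was at 0 throughout, and the list summed to 0.451 to 1.58, mostly Thy1. The 3 trophectoderm markers summed to 0.651 to 2.19. The part of these cells in the Scarna3a difference was not tested.

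Between WT and empty vector 0 members were called (0% of all genes), and between F266A and empty vector also 0 (4.55% of all genes). At an unadjusted p under 0.05 there were 7 of 37 members for WT against empty vector, where 557 of 9787 genes were. For F266A against empty vector there were 6 of 37 members, where 1993 of 9787 genes were. The member closest to a call was Snora68. Its IPs stood at 0.311 and 0.435 RPKM for empty vector, at 1.13 and 2.85 for F266A and at 1.95 and 2.19 for WT, with inputs of 1.48 to 1.90. The empty vector IPs were the lowest of the 9 libraries, 1.06 below F266A (SE 0.243, adjusted p = 0.050) and 1.16 below WT (SE 0.243, adjusted p = 0.463), on 0.8 to 12.1 reads per library.

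Wdr5 itself stood at 9.54 RPKM in the input of WT with IPs at 12.9 and 11.8, at 5.85, 8.79 and 8.18 in F266A and at 8.05, 9.34 and 10.5 with empty vector. The transgene was human, and how far its reads map to the mouse gene was not tested.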

How the data were processed

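Reads of 50 nt from 9 RIPiT-seq libraries were mapped by the authors to mm9 with TopHat 1.1.3, and the deposited values are RPKM per RefSeq symbol from the authors' own script. They are coverage-based and not whole reads, so no count test was run. Depth was estimated from the value of 1 read on genes of known exon length (GENCODE M1, 21046 symbols). PCR copies are not independent molecules, so the counting error may be larger than the read numbers imply.

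Members and gene lists were chosen with earlier results of these data known. Named were all Scarna genes, the 15 members with the highest median, members called in a comparison (up to 12 each), members that met the study's rule, the hosts of these, Wdr5 and the listed protein and marker genes. Snora16a, Snora19, Snora19.2, Snora21, Snora26, Snora30, Snora31, Snora61 and Snora68 fall outside this rule and were chosen after their values were seen. Python 3.11.15, pandas 2.3.3, R 4.3.3 and limma 3.58.1 were used, the latter with lmFit and eBayes(trend) on log2(RPKM + 1) after the filter (2 or more libraries at 1 or more), with a coefficient for each of the line and fraction groups, or 1 difference per line for IP against input, and Benjamini-Hochberg adjustment at 0.05. Read estimates rest on GENCODE lengths, while the lengths behind the RPKM are not given in the sources used here. The comparison of 1 member with its host is not reported here. The fits were tested on simulated data. Alternatives were other pseudocounts, filters, normalizations and models, a replicate block and leaving out libraries or lines.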

Additional observations from a re-analysis of the deposited data

Results flagged for a closer look

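Snora19 and Snora19.2 did not pass the filter, so their differences between lines were not tested. Every score was above 0 in WT and F266A and below 0 in the empty vector line. The mean score of Snora19 was 1.01 higher in WT and 0.92 higher in F266A than in empty vector, and that of Snora19.2 was 0.98 and 0.91 higher. Both genes were at 0 in the inputs of WT and F266A, so that scores there could not fall below 0, and the input of empty vector was the highest of the 9 libraries. The RPKM of Snora19 did not exceed 0.691 in any library, and both symbols had close values in every library, so they may share reads.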

How the results depend on the processing

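The number of members called in IP against input, 28, was 10 with a mean RPKM filter of 5 (10 members tested), 10 with quantile normalization and 10 with median centring, and 23 to 34 when a line or IP was left out. Over all genes quantile normalization gave 511 higher and 545 lower, in place of 6838 and 74. Snora23, Scarna13, Scarna9, Snora52, Snora43, Snora64 and Snora47 kept call and direction under every alternative that tested them (Snora47 did not pass the filter of 5). Snora81 and Snora65 missed the threshold with quantile normalization. Among the members named by rule, directions turned for Scarna6 (-0.025), Scarna3b (-0.14), Scarna8 (-0.026), Scarna10 (-0.16) and Snora15 (-0.17) with centring (as did Snora30, at -0.09, outside that rule), for Scarna10 (-0.014) with quantile normalization and for Snora15 (-0.048) with a pseudocount of 0.1. With a line or IP left out they ranged from -0.042 to 0.61 for Scarna3a, -0.39 to 0.10 for Scarna17 (0.035 without F266A), -0.11 to 0.46 for Scarna10 (-0.043 without F266A), -0.022 to 0.37 for Scarna3b and -0.27 to 0.38 for Snora15 (-0.015 without empty vector IP 1).

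Members called between IP levels of WT and F266A (1) were 0 without a filter and 0 with the filter of 5, which Scarna3a did not pass. The replicate block gave 2 and added Scarna17. Over all genes 76 were higher and 38 lower in WT in the main fit. These became 0 and 0 without a filter, 51 and 21 with the filter of 5 and 108 and 46 with the block. With an IP left out the call of Scarna3a held only without F266A IP 1, and Scarna17 took its place without F266A IP 2. Deviations of same-numbered IPs had r = 0.26 for WT with F266A, 0.11 for WT with empty vector and 0.01 for F266A with empty vector (9787 genes). The labels do not state whether same-numbered IPs were processed together, and these values cannot decide it. For F266A against empty vector the 0 became 1 with the pseudocount of 0.1 and 1 with the replicate block, Snora68 in both. Over all genes the pseudocount gave 116 higher and 320 lower in F266A and the block 174 and 433, in place of 114 and 331. With an IP left out the members called also changed, for this pair and for WT against empty vector. The study's rule returned 5 members in place of 3 with centred scores and 3 to 8 with a WT IP left out. Over all genes the rule gave 723 with centring and 3354 and 3238 with a WT IP left out, in place of 1157. Enrichment calls stayed at 0 members under every alternative, with 88 genes for F266A against empty vector at the pseudocount of 0.1, 2 for WT against F266A without F266A IP 2 and, with no filter, 8 higher and 25 lower for WT against F266A, 18 and 27 for WT against empty vector and 15 and 7 for F266A against empty vector. The cause of these changes was not tested. Of 34 members with a read estimate, 17 had a median under 10 reads.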
